A study of Mus musculus with 6 samples.

Results

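The genes of the mitochondrial respiratory chain and the ATP synthase were taken as every row whose symbol starts with mt-, Nduf, Sdh, Uqcr, Cox4i, Cox5, Cox6, Cox7, Cox8 or Atp5. This gave 111 of the 32285 gene symbols measured in single cells of mouse esophageal organoids. The mitochondrial genome encodes 13 of them, the mt- genes, and 98 are nuclear. The nuclear ones comprise 37 subunits of complex I, 4 of complex II, 8 of complex III, 18 of complex IV and 17 of the ATP synthase, called complex V, with 14 assembly and related factors whose symbols match the rule. Ndufa4 was placed with complex IV, where its protein is now known to sit, and Ndufb1-ps was kept as a complex I subunit although its symbol carries a pseudogene suffix.

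The organoids grew from esophageal basal cells of C57B6 mice that were positive for integrin-b1, negative for the dead-cell stain DAPI, and sorted by Cyto-ID, a dye that stains autophagic vesicles, into a Low and a High group. Sorted cells were embedded in Matrigel and grown for 15 days in a medium with EGF, Noggin/R-Spondin-conditioned medium and the kinase inhibitor Y27632, which both groups shared, and live single cells were then profiled with droplet 3′ sequencing. Each group has 3 libraries, labelled F2, M3 and F6, from mice of strain C57BL6. The labels give no genotype, and their age of 15 days equals the time in culture. The Cyto-ID label belongs to the sorted founder cells, not to the cells sequenced after culture, and the labels do not state whether the libraries come from separate animals, so p-values measure only the spread between these libraries.

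The respiratory chain passes electrons from NADH and succinate through complexes I to IV to oxygen and pumps protons, and the ATP synthase uses the resulting gradient to make ATP. Complex II is built from nuclear-encoded proteins alone, whereas the other complexes join a few core proteins made inside the organelle with many imported ones. In stratified epithelium, basal cells divide and suprabasal cells differentiate towards a surface layer that sheds its organelles, so both genomes have to be followed along that path.

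Of 26808 deposited cell barcodes, 25154 had at least 500 detected genes and were kept, from 2667 to 5617 per library. Libraries held 8231527 to 48873796 UMIs (unique molecules), and the median per cell ran from 1940.5 in Cyto-ID High F6 to 10038 in Cyto-ID High F2. Any pair of libraries shared 0 to 8 barcodes. The mt- share of UMIs stayed under 10% in every deposited barcode of all 6 libraries, so cells above that level could not be seen here. The cells were squamous by their markers: 7 basal markers summed to 10548 to 20456 CPM (UMIs scaled to a common total per cell) per library, while 5 immune markers reached at most 0.110, 4 fibroblast markers 4.23, 2 endothelial markers 0.854, 2 red cell markers 0.721 and 3 muscle markers 1.44 CPM. Cyto-ID High F6 stood apart, with the fewest genes per cell (median 775) and 335435 CPM of ribosomal protein transcripts against 190563 to 247308 in the other 5 libraries. Where a Cyto-ID result moves without it, that value is given.

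Nuclear respiratory genes are often described together because many of their promoters share binding sequences for NRF1, ETS-family factors and YY1. The 120 bases before the annotated start of 4 members are printed 5′ to 3′ on the gene's strand, from RefSeq's GRCm38.p6 promoters. All 4 moved with the layer of the epithelium, as described further on, and each holds a match in this stretch. They do not stand for all members that moved: Ndufv3 and Cox8a rose more and hold no match in it. Capitals mark matches to the NRF1 motif and to the ETS sequence CCGGAAG, each on either strand. Relative to the typical gene, Cox6a1, Cox6b1 and Ndufa11 rose in differentiating cells, and Ndufaf4 fell. The call of Ndufa11 was lost on CPM not scaled to the typical gene (0.10).
Cox6a1 (chr5:115348959-115349078, minus strand): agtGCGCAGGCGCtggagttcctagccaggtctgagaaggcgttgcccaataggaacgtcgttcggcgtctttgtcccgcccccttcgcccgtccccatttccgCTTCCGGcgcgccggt
Cox6b1 (chr7:30626115-30626234, minus strand): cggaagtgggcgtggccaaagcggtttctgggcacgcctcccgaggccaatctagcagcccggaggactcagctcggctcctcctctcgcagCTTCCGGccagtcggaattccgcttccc
Ndufa11 (chr17:56717642-56717761, plus strand): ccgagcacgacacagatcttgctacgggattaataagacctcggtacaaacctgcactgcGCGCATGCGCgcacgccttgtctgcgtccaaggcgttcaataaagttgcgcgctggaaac
Ndufaf4 (chr4:24897963-24898082, plus strand): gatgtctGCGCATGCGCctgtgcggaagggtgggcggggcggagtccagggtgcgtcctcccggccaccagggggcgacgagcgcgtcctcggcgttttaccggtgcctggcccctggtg

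Of the 98 nuclear members, 96 matched the RefSeq table by symbol and 2 by synonym, and 81 had a promoter of 300 bases, 250 before and 50 after the start. The NRF1 sequence stood in 20 of the 81 (24.7%), against 4.78% of all 27025 promoters in the table. The ETS sequence stood in 21 (25.9%), against 9.12%, and the YY1 sequence AAGATGGCG, also searched on both strands, in 7 (8.64%), against 1.49%. Each motif was counted on its own. Members were also classed by their layer calls relative to the typical gene, which for many differ from those on unscaled CPM. Among members that rose with differentiation 8 of 47 promoters held the NRF1 sequence, among those that did not pass the test 10 of 28, and among those that fell 2 of 4. The ETS sequence stood in 14 of 47, 7 of 28 and 0 of 4 of these classes, and the YY1 sequence in 5 of 47, 2 of 28 and 0 of 4. These are matches of letters and show no binding.

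The first comparison asked how the 2 genomes' transcripts differ between layers. Cells were split by their deposited Krt13 value, a keratin of suprabasal esophagus, into Krt13-low cells (below 3 on the natural-log scale) and Krt13-high cells (3 and more). The 5 other suprabasal markers summed to 93.8 to 1081 CPM in Krt13-low and 1600 to 4310 CPM in Krt13-high cells, higher in 6 of 6 libraries, and Krt13-high cells made up 27.4% to 50.5% of a library. The 7 basal markers separated the layers less, at 10337 to 23269 CPM in Krt13-low and 9267 to 17801 CPM in Krt13-high cells. Their sum was lower in Krt13-high cells of every library except Cyto-ID High F6 (10337 in Krt13-low, 11104 in Krt13-high). The transcripts of the mitochondrial genome took a smaller share of UMIs in Krt13-high cells in 6 of 6 libraries. The 13 mt- genes together held 2.19% to 3.04% of UMIs in Krt13-low cells, with a median of 2.64% over libraries, and 1.32% to 2.23%, with a median of 1.79%, in Krt13-high cells. The mean difference was -0.861 ± 0.096 percentage points (SD, n = 6 libraries).

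The 84 nuclear subunit genes moved far less. Their summed share was also lower in Krt13-high cells in 6 of 6 libraries, with a mean log2 ratio of -0.14 ± 0.08 (SD, n = 6), against -0.60 ± 0.13 for the mt- genes. The ratio of nuclear subunit to mt- UMIs, which no scaling can alter, was therefore higher in Krt13-high cells in every library. It ran from 0.682 to 1.20 (median 0.807) in Krt13-low and from 0.924 to 1.60 (median 1.16) in Krt13-high cells, a mean log2 rise of 0.45 ± 0.11. The ratio was higher in 6 of 6 libraries within each complex that has subunits of both genomes, by 0.45 in complex I, 0.46 in complex III, 0.47 in complex IV and 0.70 in complex V on the log2 scale.

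**Figure D1:**
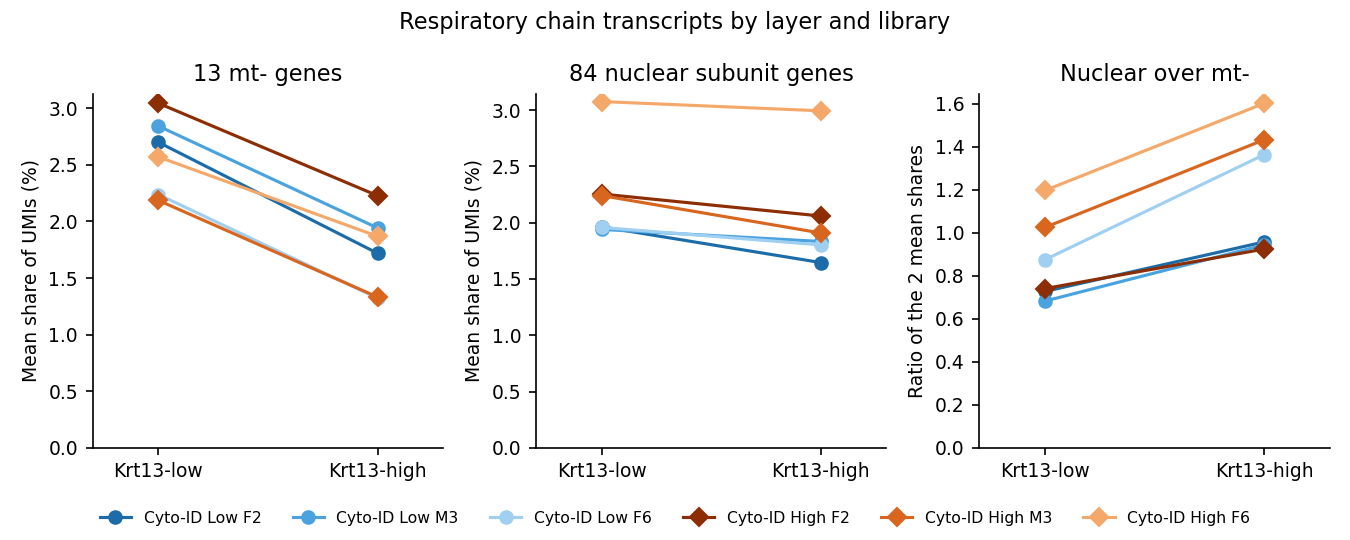
Mean share of UMIs (%) held by the 13 mt- genes (left) and the 84 nuclear subunit genes (middle), and the ratio of these shares (right), in Krt13-low and Krt13-high cells; each line joins the 2 layers of 1 library, circles for Cyto-ID Low and diamonds for Cyto-ID High. Every mt- line falls (median 2.64% to 1.79%), the nuclear lines fall little, and every ratio line rises, with the nuclear share of Cyto-ID High F6 standing above the other libraries.

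Krt13-high cells were also deeper: their median UMI count was above that of Krt13-low cells in 6 of 6 libraries, for example 9489 against 7204 in Cyto-ID Low F2. Each library's cells were also cut into 3 equal sets by UMI count, a split added after the data were seen. The mt- share was lower in Krt13-high cells in 17 of these 18 sets and the nuclear-to-mt ratio higher in 17 of 18. The mean difference of the mt- share was -0.511 ± 0.407 percentage points (SD, n = 6 libraries) in the shallowest sets, -0.701 in the middle and -0.748 in the deepest. The exception to both counts was the shallowest set of Cyto-ID Low F6, where the mt- share was 2.55% in Krt13-low and 2.67% in Krt13-high cells. With each cell of 1000 or more UMIs thinned to 1000, the mean difference of the mt- share was -0.844 percentage points. Random thinning leaves the expected share of a cell unchanged, so this value is no test of depth. Cycling cells, those with a UMI of Mki67 or Top2a, were rarer among Krt13-high cells in 6 of 6 libraries, and the difference was -0.879 percentage points without them. Ribosomal protein transcripts, another abundant class, were also lower in Krt13-high cells in 6 of 6 libraries (median 264768 to 198833 CPM), and their part in these shares was not tested. The 4 genes listed for dissociation stress (Fos, Jun, Hspa1a and Atf3) summed to 1814 to 2898 CPM in Krt13-low and 1319 to 1996 CPM in Krt13-high cells, also lower in 6 of 6. Of these, Jun and Atf3 were lower in 6 of 6 libraries, Fos in 3 and Hspa1a in 0, and the part of cell handling in the mt- share was not tested.

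Along Krt13 itself the mt- share did not drift evenly. In cells with no Krt13 UMI its median over libraries was 2.70%, and in the bins from 1 to 2 and from 2 to 3 it was 2.56% and 2.61%. It was 1.93% at values from 3 to 4, 1.70% from 4 to 5 and 1.57% at 5 and more. The lower level thus began in the bin just above the split, while the nuclear share went from a median of 2.07% in the bin from 2 to 3 to 1.97% in the bin from 3 to 4. In Cyto-ID High F2 the topmost bin (2.44%) stood above the bin before it (2.02%). The Krt13 value is scaled to the cell total, so the same bin holds fewer Krt13 UMIs in shallow cells. The bin above 0 to 1 held 393 cells in Cyto-ID Low F2 and 4 in Cyto-ID Low F6. The part of depth and free RNA in the shape below the split was not tested.

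**Figure D2:**
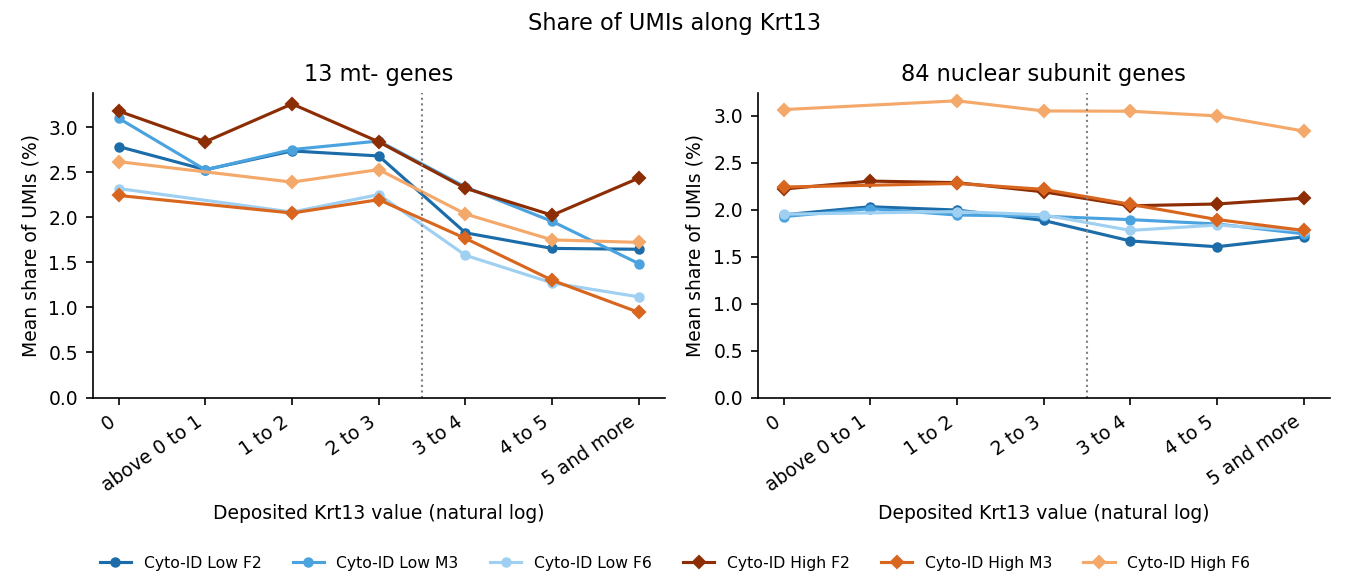
Mean share of UMIs (%) of the 13 mt- genes (left) and the 84 nuclear subunit genes (right) against the deposited Krt13 value in 7 bins, 1 line per library; bins with under 20 cells are not drawn and the dotted line marks the split at 3. The mt- share lies between 2.05% and 3.26% in the bins below 3 and between 0.945% and 2.44% above it, and the nuclear share changes less.

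Single genes were tested with limma on log2 of scaled CPM plus 1, with the library as a block and Benjamini-Hochberg adjustment over all genes tested. Scaling by trimmed mean of M values (TMM) sets the typical gene near 0. Without it the median gene was 0.38 log2 units lower in Krt13-high cells, a shift of 0.37, so each direction below is relative to the typical gene, and unscaled counts are given for each set of genes. Of the 111 members 106 passed the filter of 1 CPM in 6 of 12 layer means. At an adjusted p below 0.05, 56 rose and 16 fell in Krt13-high cells, when 31.0% of all 11430 genes tested rose and 29.6% fell. The 56 include Cox7a1 and the 16 include Cox6b2, which passed the filter only with the layer where each is high. On unscaled CPM 8 members were higher and 70 lower, when 14.9% of all genes were higher and 58.3% lower. All 56 that rose are nuclear: 41 of them had a negative unscaled fold and 20 of those passed the test as lower. All 16 that fell are lower on that scale too, as its downward shift requires.

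The mitochondrial genes fell together. Of the 13 mt- genes, 11 fell, 0 rose and the median log2 fold was -0.36, when the median of all genes was -0.01. On unscaled CPM 13 of 13 were lower, with a median of -0.76. In 11 of the 13 each of the 6 libraries was lower, which held for 26.5% of all genes. These 13 genes lie in 1 circular genome, and all but mt-Nd6 lie on the same strand. They are listed in the order of that genome in the plot of single mt- genes.

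The falls were largest for mt-Atp8 and mt-Atp6, both membrane subunits of the ATP synthase. In scaled CPM mt-Atp6 (chrM:7927-8607, plus strand) ran from 2992 to 5258 in Krt13-low cells (median 4027) and from 1877 to 4266 in Krt13-high cells (median 2979). It was lower in 6 of 6 libraries although the ranges overlap, and the log2 fold was -0.48 ± 0.06 (SE; limma, adjusted p = 1.59e-05). mt-Atp8 (chrM:7766-7969) ran from 90.2 to 314 (median 166) and from 67.4 to 188 (median 121), with a fold of -0.55 ± 0.08 (adjusted p = 6.17e-05). These genes overlap by 43 bases in the GENCODE M21 annotation of GRCm38, so reads there cannot be assigned to one of them. Their falls may therefore not be separate. mt-Nd6 (chrM:13552-14070), a complex I subunit and the one gene here on the minus strand, had medians of 31.2 and 21.1, and fell by 0.47 ± 0.08 (adjusted p = 2.60e-04), lower in 6 of 6 libraries.

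mt-Co1, the catalytic core of complex IV, did not follow most of the others. Its scaled level (chrM:5328-6872, plus strand) ran from 6581 to 8683 CPM in Krt13-low cells (median 7451) and from 6273 to 8893 in Krt13-high cells (median 8295), the groups overlapped, and 4 of 6 libraries were higher. The log2 fold was 0.09 ± 0.07 (limma, adjusted p = 0.253), and -0.32 on unscaled CPM. mt-Co2 and mt-Co3, the other mitochondrial subunits of the same complex, fell by 0.42 ± 0.06 and by 0.37 ± 0.06 (adjusted p = 4.47e-05 and 1.37e-04), each lower in 6 of 6 libraries. As a part of all mt- UMIs, a measure that needs no scaling, mt-Co1 was higher in Krt13-high cells in 6 of 6 libraries. It made up 28.1% to 41.0% (median 32.8%) of them in Krt13-low and 34.7% to 48.3% (median 40.5%) in Krt13-high cells, a mean gain of 7.16 ± 2.38 percentage points. Over the same cells mt-Atp6 went from a median of 18.0% to 14.8% and was lower in 6 of 6. mt-Nd4 went from a median of 5.46% to 6.27% and was higher in 5 of 6, and mt-Nd5 was higher in 3 of 6. These parts share 1 total, so the gain of mt-Co1 by itself lowers the parts of other genes.

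Complex I showed the same spread among genes of 1 complex. mt-Nd2 fell by 0.42, mt-Nd3 by 0.36, mt-Nd1 by 0.34 and mt-Nd4l by 0.23, and mt-Cytb, the mitochondrial subunit of complex III, by 0.25, each lower in 6 of 6 libraries. The call of mt-Nd4l was lost in cells with 1000 or more genes (-0.14). mt-Nd4 did not pass the test (-0.09 ± 0.05, limma, adjusted p = 0.135) and was lower in 5 of 6. It overlaps mt-Nd4l by 7 bases on the same strand, so reads there cannot be assigned to one of them. The folds of mt-Nd4l and mt-Nd4 may therefore not be separate. mt-Nd5, which overlaps mt-Nd6 by 14 bases on the other strand, had a fold of -0.15 ± 0.06 with an adjusted p of 0.035 that was lost in 8 of the alternative runs, including those without Cyto-ID Low F6 (-0.13) or without Cyto-ID High F6 (-0.14).

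**Figure D3:**
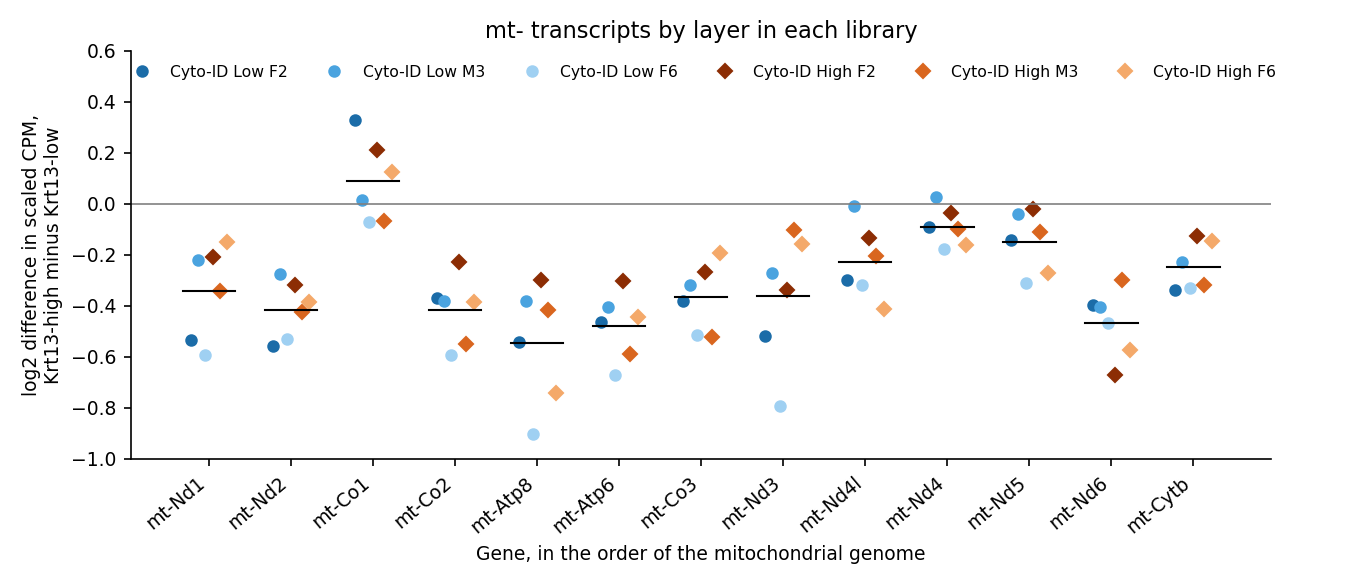
Difference in log2 scaled CPM, Krt13-high minus Krt13-low cells, for the 13 mt- genes in genome order; each point is 1 library, circles for Cyto-ID Low and diamonds for Cyto-ID High, and the bar is the mean of 6. The points of mt-Co1 lie on both sides of 0, those of mt-Nd4 near it, and all 6 points of the other 11 genes lie below 0, mt-Atp8 lowest on average (-0.55).

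Most nuclear subunit genes stood above the typical gene in Krt13-high cells. Of 79 tested, 51 rose and 2 fell, with a median log2 fold of 0.21 (unscaled -0.20, 8 higher and 48 lower). Complex IV, which reduces oxygen, led with 10 of 13 rising and 1 falling (median 0.34), followed by complex III with 6 of 8 and 1 falling (0.24), complex V with 13 of 17 (0.23), complex I with 20 of 37 (0.18) and complex II with 2 of 4 (0.03). The complex IV counts on both scales include Cox7a1, which rose, and Cox6b2, the gene that fell. Both passed the filter only with the layer where they are high, so their calls are not free of that selection. On unscaled CPM 5 were higher and 4 lower in complex IV, 2 and 4 in III, 0 and 11 in V, 1 and 26 in I, and 0 and 3 in II. As a part of all nuclear subunit UMIs, complex IV went from a median of 29.3% to 31.7% and was higher in Krt13-high cells in 6 of 6 libraries. Complexes I and II were higher in 0 of 6, and III and V in 1 of 6 each. This order by share needs no scaling, but differences between complexes were not tested. Abundant genes weigh most in such sums, in complex IV among others Cox8a and Ndufa4 (medians of 1134 and 979 CPM over libraries). The share of complex IV without these genes was not taken.

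In complex IV the rises were led by small nuclear subunits around the catalytic core. Cox8a, a single-pass subunit that stabilises the enzyme (chr19:7215153-7217616), ran from 659 to 1959 scaled CPM (median 945) in Krt13-low and from 1081 to 2754 (median 1425) in Krt13-high cells. It was higher in 6 of 6 libraries, with a log2 fold of 0.72 ± 0.07 (limma, adjusted p = 2.33e-06), and was also higher without scaling (0.31). Cox6a1, the broadly expressed form of subunit VIa (chr5:115345642-115348981), went from a median of 116 to 184 scaled CPM, a fold of 0.68 ± 0.07 (adjusted p = 5.54e-06), and Ndufa4 from 783 to 1161, a fold of 0.65 ± 0.07 (adjusted p = 4.21e-06). Cox6b1 rose by 0.58 ± 0.05. These 4 and Cox7a1 were the complex IV genes that rose on both scales. Cox4i1, the regulatory subunit that binds early in assembly, did not pass the test (-0.06 ± 0.05, adjusted p = 0.352), with medians of 893 and 897 scaled CPM.

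Complex IV has alternative forms of several subunits, and those known mainly from muscle, heart, lung or testis were rare here. Cox4i2, Cox6a2, Cox7b2, Cox8b and Cox8c were the 5 members below the filter, with 21, 5, 0, 0 and 2 UMIs over all kept cells. Of the forms that could be tested, Cox7a1, the heart and muscle form of subunit VIIa, rose and Cox6b2, the testis form of VIb, fell. Cox7a1 (chr7:30184144-30186078) ran from 0.434 to 1.24 scaled CPM in Krt13-low and from 2.17 to 11.8 in Krt13-high cells, without overlap, with a log2 fold of 1.48 ± 0.23 (limma, adjusted p = 1.27e-04). It rested on 467 UMIs in all, of which Cyto-ID Low F2 held 212, Cyto-ID High F2 123 and Cyto-ID High F6 14. Among the muscle markers Des had 1 UMI and Ckm 6 over all kept cells, and Acta1 had 239, of which 4 were in Krt13-high cells. Cox6b2 (chr7:4751792-4753094) ran from 3.11 to 9.68 and from 0.648 to 2.49, with a fold of -1.30 ± 0.19 (adjusted p = 5.91e-05, 549 UMIs). Cox7a1 and Cox6b2 each passed the filter of 1 CPM only with the layer where they are high, so their p-values are not free of that selection. The broad form Cox7a2 rose by 0.29 ± 0.05 from a median of 304 to 359 scaled CPM but was lower without scaling (-0.12).

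In complex I, which takes electrons from NADH, 20 of 37 subunits rose and 0 fell. Ndufv3, an accessory subunit of the NADH-binding module (chr17:31520115-31531331), ran from 106 to 206 scaled CPM (median 123) in Krt13-low and from 184 to 395 (median 207) in Krt13-high cells. It was higher in 6 of 6 libraries by 0.78 ± 0.07 (limma, adjusted p = 1.40e-06) and was the only complex I gene also called higher without scaling (0.37). Ndufa11 and Ndufa3, both membrane-arm accessory subunits, rose by 0.51 and 0.50, calls that were lost without scaling (0.10 each). In complex II, which oxidises succinate, the flavoprotein gene Sdha rose by 0.29 and the membrane anchor gene Sdhc by 0.16. The iron-sulfur gene Sdhb (-0.17 ± 0.09, adjusted p = 0.113) and the other anchor Sdhd (-0.10 ± 0.09, adjusted p = 0.383) did not pass. The call of Sdhc was lost in 11 alternative runs, among them each run that left out 1 of the 6 libraries (0.13 to 0.16). That of Sdha was lost in 3, with cells thinned to 1000 UMIs (0.15), in cells with 1000 or more genes (0.18) and with no library term. These counts leave out the run without scaling, in which the folds of both genes turned negative, as given with the processing.

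Complex III, which passes electrons from ubiquinol to cytochrome c, held members that moved in opposite directions. Uqcrc1, a core protein on the matrix side (chr9:108936633-108949623), ran from 122 to 452 scaled CPM (median 174) in Krt13-low and from 82.5 to 283 (median 115) in Krt13-high cells. It fell in 6 of 6 libraries by 0.65 ± 0.05 (limma, adjusted p = 4.65e-07; -1.05 unscaled). Uqcrq, a small subunit of the same complex (chr11:53427922-53430831), rose by 0.64 ± 0.05 (adjusted p = 5.93e-07), from a median of 193 to 297 scaled CPM, higher in 6 of 6 and also without scaling (0.24). Uqcrb rose by 0.57 ± 0.06.

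In the ATP synthase 13 of 17 nuclear subunits rose relative to the typical gene, by at most 0.43 (Atp5d), and none was called higher without scaling. The 3 genes for the c-ring that carries protons, whose mature proteins are identical, differed little. Atp5g1 rose by 0.17 ± 0.05 (limma, adjusted p = 0.00928), a call lost in 4 alternative runs, without Cyto-ID Low M3 (0.14), with cells thinned to 1000 UMIs (0.13), with the split at 2 (0.11) and with no library term, while Atp5g2 (-0.08) and Atp5g3 (0.08) did not pass. All 3 were lower on unscaled CPM.

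Among the 14 factors 5 rose and 3 fell (median -0.05), and on unscaled CPM 0 were higher and 9 lower. The complex I assembly factor Ndufaf3 rose by 0.57 ± 0.11 and Ndufaf4, with which it works, fell by 0.49 ± 0.11 (limma, adjusted p = 7.24e-04 and 0.00212). Ndufaf4 went from a median of 11.3 to 9.03 scaled CPM, was lower in 6 of 6 libraries, and lost its call with the split at 2 (-0.24). The supercomplex factor Cox7a2l did not pass (-0.05). Ndufa4l2, a paralog of Ndufa4 known as a hypoxia-induced gene, rose by 0.34 ± 0.09 (adjusted p = 0.00809), higher in 6 of 6, but not without scaling (-0.07). Its gene overlaps Shmt2 on the opposite strand.

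**Figure D4:**
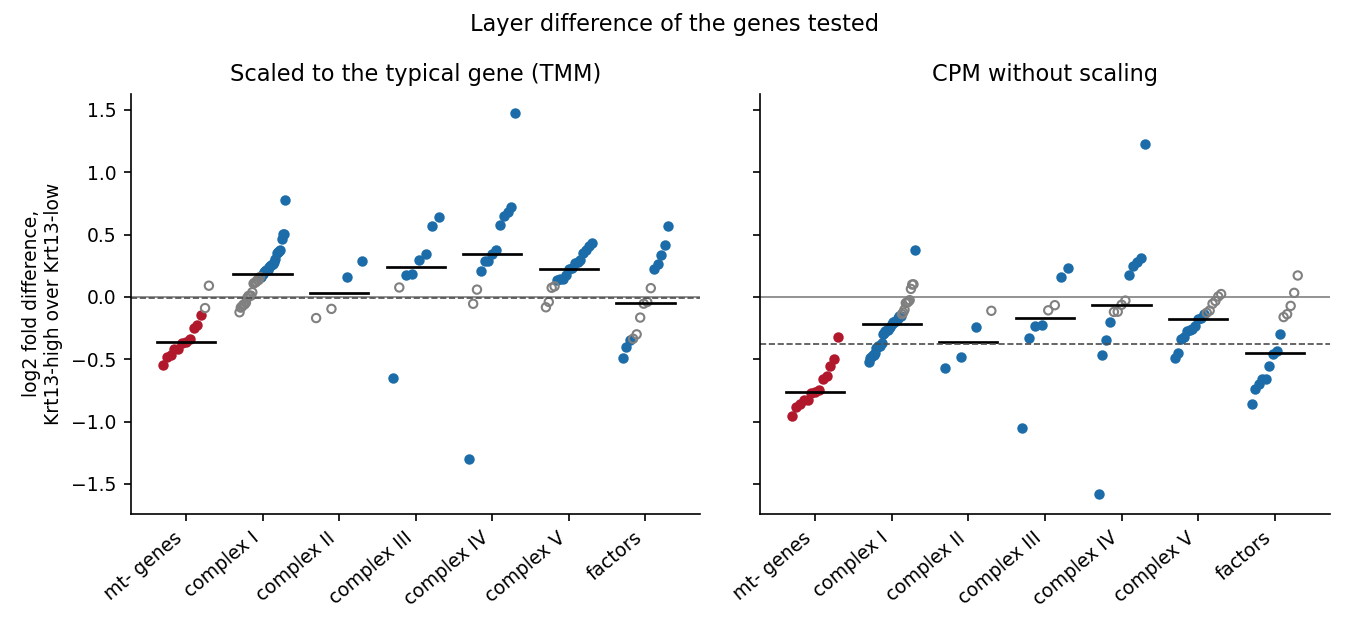
Log2 fold difference, Krt13-high over Krt13-low cells, of the 106 members tested, by complex, on TMM-scaled CPM (left) and unscaled CPM (right). Each point is 1 gene, filled where the adjusted p is below 0.05 and open otherwise, black bars are medians, and the dashed line is the median of all 11430 genes (-0.01 and -0.38). The mt- genes have the lowest median of the sets drawn on both scales (-0.36 and -0.76), and most nuclear genes lie above the dashed line.

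Other gene lists of mitochondrial and energy metabolism are described by their counts in the same fit, beside the 31.0% of all genes that rose and the 29.6% that fell. On unscaled CPM 14.9% of all genes were higher and 58.3% lower. Of 20 genes for transcription and upkeep of mitochondrial DNA, 13 fell and 0 rose, with a median of -0.41. Top1mt, the mitochondrial topoisomerase, fell by 1.13 ± 0.16 and Lrpprc, which stabilises mitochondrial mRNA, by 0.68 ± 0.11, while Hsd17b10, a subunit of mitochondrial RNase P, fell by 0.53 and the single-strand binding protein gene Ssbp1 by 0.41. On unscaled CPM 18 of the 20 were lower. Of 78 mitochondrial ribosomal protein genes 24 rose and 22 fell, shares near those of all genes on scaled CPM. Without scaling 2 were higher and 62 lower, a larger share lower than among all genes. Of 17 genes of the TCA cycle 4 rose and 5 fell, also near the background on scaled CPM. Without scaling 0 were higher and 14 lower, again a larger share lower than among all genes. Citrate synthase (Cs) rose by 0.53, a call lost without scaling (0.12), and the isocitrate dehydrogenase gene Idh3g fell by 0.59 (-0.99 unscaled).

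Of 15 glycolysis genes 10 rose and 2 fell (median 0.22), and without scaling 0 were called higher and 10 lower. Aldoa, an aldolase, rose by 0.47 and Slc2a1, the glucose importer, fell by 0.79. Of 12 mitophagy receptor genes, which mark mitochondria for autophagic removal, 7 rose and 2 fell (median 0.35, unscaled -0.05 with 2 higher and 4 lower). Sqstm1 rose by 1.13 ± 0.09, from a median of 74.4 to 158 scaled CPM, and was higher on both scales. Bnip3 rose by 0.44, a call lost without scaling (0.04). Of 36 assembly factors outside the naming rule 11 rose and 6 fell (unscaled 3 higher and 20 lower). Those with the smallest p were Higd1a (0.63) and Pet100 (0.67), and Coa4 rose by 0.77, each a factor of complex IV. Of 13 electron carriers 3 rose and 4 fell (unscaled 0 higher and 9 lower), and of 9 regulators 2 rose and 2 fell (0 and 6). On scaled CPM these shares are near or below those of all genes.

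The second comparison set Cyto-ID High against Cyto-ID Low organoids over all kept cells. No member passed the test: limma called 0 of 106, when 0.120% of 11645 genes were called, and 9 members had an unadjusted p below 0.05 (8.49%, against 8.12% of all genes). That count was 35 without Cyto-ID High M3 (33.0%, against 16.1% of all genes) and 2 without Cyto-ID High F6 (1.89%, against 3.80%). It was 3 without Cyto-ID Low F2 (2.83%, against 4.24%), 6 without Low M3 (5.66%, against 9.53%), 6 without Low F6 (5.66%, against 4.22%) and 12 without High F2 (11.3%, against 9.41%). The folds nevertheless lay mostly above 0, in 96 of 106 members (50.0% of all genes), with a median of 0.39. Without Cyto-ID High F6 the median was 0.23 for the nuclear members, from 0.41 with it, and 0.05 for the mt- genes, from 0.27. Without Cyto-ID High M3 it was 0.44 for the nuclear members and 0.54 for the mt- genes, which turned their order. Groups did not overlap, with High above Low, for 18 members (17.0%, against 7.33% of all genes), and for 0 with High below (6.22% of all genes). The same libraries enter every gene, so these counts share their spread. Markers of cell state differed too. Over all kept cells 4 proliferation genes summed to 92.6, 132 and 47.7 CPM in Low F2, M3 and F6. In High they summed to 153, 167 and 194, without overlap. Within Krt13-low cells the sums overlapped, at 134, 203 and 69.0 in Low and 193, 270 and 248 in High. Within Krt13-high cells they did not, at 34.9, 45.2 and 20.5 against 56.0, 65.5 and 52.3. The share of cells with a UMI of Mki67 or Top2a overlapped over all cells, at 11.2%, 12.2% and 4.91% against 18.8%, 10.2% and 14.2%. Of the 6 suprabasal markers, 3 did not overlap in Krt13-low cells, with High above (Krtdap, Sbsn and Tgm3), and 3 overlapped (Krt4, Krt13 and Ivl). The split bounds Krt13 itself in these cells, so its overlap carries no weight. Krtdap, the highest of the first 3 in High, stood at 46.0, 15.1 and 7.19 CPM in Low and at 501, 334 and 995 in High, and Ivl at 37.3, 12.6 and 34.7 against 24.2, 11.4 and 8.43. The part of cell state in the member folds was not tested.

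The nuclear subunits held 1.83%, 1.89% and 1.89% of UMIs in Cyto-ID Low F2, M3 and F6, and 2.20%, 2.07% and 3.05% in Cyto-ID High F2, M3 and F6. All 3 High values lay above all 3 Low values, and F6 was far above the other High libraries. The mean log2 ratio was 0.36, and 0.19 without Cyto-ID High F6. The mt- genes held 2.29%, 2.44% and 1.84% in Low and 2.81%, 1.76% and 2.38% in High, so these groups overlapped. Their difference of 0.126 percentage points changed sign without Cyto-ID High F2 (-0.121) or without Cyto-ID Low F6 (-0.049). Krt13-high cells made up 41.9%, 45.2% and 43.8% of kept cells in Low F2, M3 and F6 and 29.1%, 50.5% and 27.4% in High. The difference of the mt- share was 0.007 percentage points within Krt13-low cells and 0.148 within Krt13-high cells, with overlap in both. The part of the layer mix in the value over all cells was not tested.

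By complex, the nuclear subunits of I, III and V did not overlap between groups, and those of II and IV did. Complex III summed to 1767, 1764 and 1926 CPM in Low F2, M3 and F6 and to 2264, 2001 and 3543 CPM in High. Complex IV summed to 5569, 4999 and 5863 against 6551, 5411 and 10399 CPM. Without Cyto-ID High F6 the log2 ratio went from 0.47 to 0.23 in complex III, from 0.39 to 0.12 in IV, from 0.36 to 0.23 in V and from 0.30 to 0.21 in I. Complex II stood at 215, 239 and 198 against 240, 224 and 195 CPM, a ratio of 0.01, and 0.10 without that library. Ribosomal protein transcripts summed to 190563, 222212 and 239015 against 247308, 238780 and 335435 CPM, highest in the same library (0.32, and 0.17 without it), and the part of library composition in these sums was not tested.

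**Figure D5:**
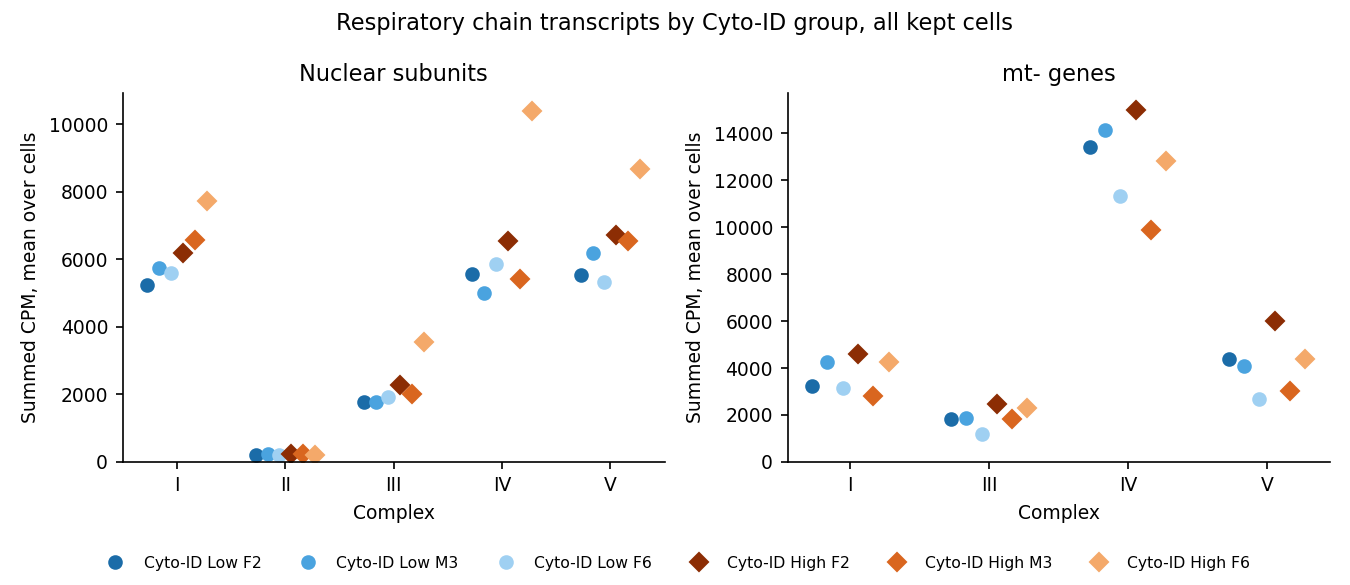
Summed CPM of the nuclear subunits (left) and the mt- genes (right) of each complex, mean over all kept cells of a library; circles are Cyto-ID Low and diamonds Cyto-ID High, 1 point per library. Cyto-ID High F6 lies highest in nuclear complexes I, III, IV and V (10399 CPM in IV), while the mt- sums of the groups overlap.

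Among single genes the smallest p belonged to Ndufaf4, the complex I assembly factor that fell with differentiation. It stood at 8.85, 9.14 and 8.32 scaled CPM in Low F2, M3 and F6 and at 15.6, 12.2 and 22.1 in High, without overlap. The log2 fold was 0.81 ± 0.23 (limma, adjusted p = 0.439). Uqcrq of complex III stood at 157, 157 and 210 against 258, 279 and 597 (1.01 ± 0.34, adjusted p = 0.545) and Cox5b, a zinc-binding subunit of complex IV, at 202, 193 and 174 against 278, 255 and 559 (0.85 ± 0.32, adjusted p = 0.586). In both genes the High libraries lay above the Low ones and F6 was highest. Without Cyto-ID High F6 the folds were 0.60 for Ndufaf4, 0.63 for Uqcrq and 0.49 for Cox5b. Of the 13 mt- genes, mt-Cytb and mt-Co3 did not overlap on scaled CPM, with High above, as held for 7.33% of all genes, and both overlapped on unscaled CPM. mt-Cytb stood at 1667, 1766 and 1241 against 2229, 2061 and 2525 (0.56 ± 0.29, limma, adjusted p = 0.662, and 0.48 without Cyto-ID High F6). mt-Co3 stood at 2106, 2399 and 2061 against 2773, 2449 and 2534 (0.24 ± 0.28, adjusted p = 0.846). mt-Co1 stood at 7853, 9178 and 8201 against 7559, 6733 and 8279, with overlap, as did the other 10.

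Ndufa4l2 was ordered by replicate label, not by group. It stood at 1055, 1900 and 820 scaled CPM in Low F2, M3 and F6 and at 787, 3050 and 462 in High, so M3 was highest in both groups and the fold was -0.19 ± 0.64 (limma, adjusted p = 0.958), turning to 0.39 without Cyto-ID High F6. The correlation of deviations paired the F2 and the M3 libraries by label but did not single out the F6 pair, as stated with the methods. With the label as a block, 0 members were called over all cells, when 0.558% of all genes were, and 32 had an unadjusted p below 0.05 (30.2%, against 15.9% of all genes).

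The groups were also compared within each layer. In Krt13-low cells 0 of 106 members passed (0.230% of all genes did), 12 had an unadjusted p below 0.05 against 7.14% of all genes, and the median log2 fold was 0.40 (0.24 without scaling, where the median of all genes was -0.14). In Krt13-high cells 0 passed (0.287% of all genes), 9 had an unadjusted p below 0.05 against 7.56%, and the median was 0.34. The counts at an unadjusted p below 0.05 were 40 and 30 without Cyto-ID High M3 (37.7% and 28.3%, against 14.4% and 11.5% of all genes) and 2 and 1 without Cyto-ID High F6 (1.89% and 0.943%, against 3.40% and 4.16%). Without Cyto-ID High F6 the median fold of the nuclear members was 0.28 and 0.21 in these layers, from 0.43 and 0.34 with it. That of the mt- genes was 0.007 and 0.10, from 0.21 and 0.33 with it, and 0.44 and 0.59 without Cyto-ID High M3. Atp5g1, a c-ring gene of the ATP synthase, stood at 192, 262 and 249 scaled CPM in Krt13-low cells of Low F2, M3 and F6 and at 287, 409 and 459 in High. These groups did not overlap, but the log2 fold of 0.70 did not pass the test (limma, adjusted p = 0.632) and was 0.56 without Cyto-ID High F6.

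The last comparison asked whether the layer difference itself differed between Cyto-ID groups. limma called 0 members, when 0.219% of 11430 genes were called, and 8 had an unadjusted p below 0.05 (7.55%, against 9.84%). With 1 library left out that count ran from 3 without Cyto-ID High M3 (2.83%, against 6.91%) to 14 without Cyto-ID Low M3 (13.2%, against 15.6%). For 27 members, all nuclear, each High library had a smaller rise or a larger fall than every Low library (25.5%, against 8.30% of all genes). This count covers 1 direction only, and Ndufa4l2, given below, lay without overlap in the other direction. The median interaction of the nuclear members was -0.09, when the median of all genes was -0.01. Without scaling these were 0.02 and 0.09, so the direction holds relative to the typical gene only. Cox6a1 was higher in Krt13-high cells by 0.81, 0.77 and 0.99 in Low F2, M3 and F6 and by 0.42, 0.51 and 0.59 in High, a difference of -0.35 ± 0.11 (adjusted p = 0.304). Cox8a differed by -0.31 ± 0.11 (adjusted p = 0.372) in the same direction, at 1.00, 0.71 and 0.92 against 0.70, 0.49 and 0.49. Ndufa4l2 went the other way, with layer differences of 0.07, 0.13 and 0.12 in Low and 0.43, 0.35 and 0.92 in High (0.46 ± 0.13, adjusted p = 0.275). Without Cyto-ID High F6, which holds the 0.92, its interaction was 0.29, and those of Cox6a1 and Cox8a were -0.39 and -0.28. With the replicate label as a block the interaction was called for 2 members, Ndufa4l2 (limma, adjusted p = 0.0121) and Cox8a (adjusted p = 0.0302). These are 1.89% of the members, when 246 of 11430 genes (2.15%) were called, so the count is at the background.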

How the data were processed

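Single-cell 3′ RNA libraries of 6 organoid cultures were measured. The authors deposited, per the values in the files, natural log expression, ln(1 + UMIs / cell total × 10000). The submitters' processing notes name Cell Ranger 6.0.0 and Seurat 4 with mm10, without roles. Undoing the log gave whole UMIs for 100% of values (tolerance 1e-06) and cell totals of 10000. Cells with 500 or more genes were kept, no doublet caller was run, and reads were not corrected for free RNA. CPM per cell was averaged per library and layer, divided by TMM factors (trims of 30% and 5%), and log2(CPM + 1) was fitted with limma 3.58.1 in R 4.3.3 with a mean-variance trend, on genes of at least 1 CPM in 3 libraries (6 layer means), adjusted by Benjamini-Hochberg at 0.05. Fold changes on this scale understate changes of low genes. 3′ UMIs were not divided by gene length, so levels are compared within a gene. Cells are not replicates: a library is 1 value. The plan kept count models for deposited counts, so none was fitted although whole UMIs were recovered. The script was tested on simulated data.

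The layer fit has the library as a block. The Cyto-ID fits and the interaction have none. Same-labelled libraries deviated together from their group means in F2 and M3 (correlations of 0.76 and 0.58 over 8878 genes). The F6 pair had 0.15, below the 0.17 of Low F2 with High F6, so the correlation did not single it out. Every same-labelled pair was over 0.1, the rule for using the replicate label as a block in alternative runs. That rule cannot decide the F6 pair, since an unlike pair also passes it. The labels do not say what the replicate label marks. Named genes were all mt- genes, up to 10 called nuclear members per direction and fit with a mean of at least 10 CPM, or else the 5 with the smallest p, the subunit isoform pairs and complex II, and up to 4 genes of each other list by p. The members and lists were chosen with earlier results of these data known. Alternatives changed the pseudocount, filter, scaling, pooling, depth, cell filter, layer split, cycling cells, block and libraries. Of 97 members with a position in GENCODE M21, 12 overlap another gene on the same strand and 36 on the opposite strand, and 7 named pseudogenes resemble members, so such reads are uncertain.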

Additional observations from a re-analysis of the deposited data

How the results depend on the processing

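The 72 calls between layers (67.9%, against 60.6% of all genes) went to 57 with thinned cells (53.8%, against 47.1%), to 61 of 93 tested with CPM over genes other than mt- (65.6%, against 60.4%), to 78 without scaling (73.6%, against 73.1%) and to 79 with summed UMIs (74.5%, against 65.8%). They ran from 61 (57.5%, against 55.4%) to 67 (63.2%, against 59.2%) when a library was left out. Without scaling the directions turned from 56 rising and 16 falling to 8 and 70, and with no library term 5 were called (4 rising, 1 falling; 4.72%), when 3921 of 11430 genes were (34.3%). The mean layer difference of the mt- share moved from -0.861 to -0.652 with the split at 2, and to -0.511, -0.701 and -0.748 percentage points within the shallowest, middle and deepest of 3 equal sets of cells by UMIs, a split chosen after seeing the data, and ran from -0.893 to -0.837 without each library. The summed nuclear subunits ran from -0.16 to -0.12 (log2) without each library. Without scaling 41 of the 56 folds that rose turned negative. Among the genes named by rule, called or not, those that turned were mt-Co1 (-0.32), Cox7a2 (-0.12), Ndufa4l2 (-0.072), Atp5g1 (-0.23), Atp5g3 (-0.32), Sdha (-0.11) and Sdhc (-0.24). The cause was not tested.

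Between Cyto-ID groups 0 members were called under every setting run over all cells and within layers, including the replicate block, where 32, 38 and 29 had an unadjusted p below 0.05 in all, Krt13-low and Krt13-high cells (30.2%, 35.8% and 27.4%, against 15.9%, 13.9% and 16.5% of all genes). The block called 2 members in the interaction, where every other setting called 0 (1.89%, against 2.15% of all genes), and changed no other call of the Cyto-ID fits. The mt- share difference between groups ran from -0.121 (without Cyto-ID High F2) to 0.405 (without Cyto-ID High M3) and was -0.049 without Cyto-ID Low F6. The summed nuclear difference ran from 0.19 to 0.47 (log2) without each library. Depth limits the rare isoforms, with 467 UMIs of Cox7a1 and 549 of Cox6b2 in all.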

Other observations

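In the ATP synthase the catalytic alpha and beta subunit genes were set beside the other nuclear subunits, a split chosen after the values were seen and not tested. Atp5a1 (-0.04) and Atp5b (0.07) did not pass the test between layers, while 13 of the other 15 nuclear subunits rose in Krt13-high cells (median 0.23).

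The share of cells with under 1% mt- UMIs ran from 7.94% in Cyto-ID High F2 to 26.1% in Cyto-ID High M3, and cells at 9% to 10%, just below the highest share in the files, made up 0.178% to 1.15% of a library.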
